A study of Mus musculus with 6 samples.

Results

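The genes described here are 10 neutrophil genes of the 21720 gene symbols measured in H22 tumours of mice given luteolin or vehicle. They were taken by symbol and fall into 2 kinds of 5 genes each. Csf3r, Cxcr2, Fpr1, Fpr2 and Trem1 encode surface receptors, and S100a8, S100a9, Mmp8, Ngp and Retnlg encode cytosolic, granule or secreted proteins. In the luteolin group S100a8 and S100a9 were up-regulated 21.8-fold and 26.0-fold over the control group, as ratios of the mean levels. They were the only 2 of the 9 genes tested at an adjusted p under 0.05 by edgeR, where 1.34% of all genes tested were called higher. Both calls were lost when any single control library or luteolin replicate 1 was left out, and with the replicate number as a block. All 5 receptors were higher in every luteolin library than in any control library, a pattern shared by 15.9% of all genes tested, and missed the adjusted threshold. Mmp8 and Retnlg missed it as well and overlapped between the groups, and Ngp, which was too low to be tested, came almost wholly from 1 luteolin library.

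Neutrophils are short-lived granulocytes that leave the bone marrow, follow chemokines and bacterial peptides into tissue, and release ready-made granules there. The granules are filled in an order during maturation: primary granules in promyelocytes, then secondary granules, then tertiary granules, so the transcripts of early granule proteins are low in mature cells while those of receptors and of S100A8 and S100A9 are high. In tumours, neutrophils are known both to kill tumour cells and to restrain T cells. The receptors are not private to neutrophils, since monocytes and some macrophages carry several of them, and S100a8 and S100a9 are also made by monocytes and by stressed keratinocytes.

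H22 is a mouse hepatocellular carcinoma line, and its cells were implanted under the skin of wild-type (WT) female BALB/c mice aged 6 to 8 weeks. Once a tumour measured about 50 mm3, the control group received 0.5% carboxymethyl cellulose sodium and the luteolin group 200 mg/kg luteolin, a plant flavonoid, by gavage in 0.2 mL each day for 21 days. RNA of whole tumours was sequenced in 3 libraries per group, numbered as replicates 1 to 3 in the labels. The labels do not say that the libraries came from separate mice, so the p values measure the spread between these libraries, which may be technical. The tumours stand for 1 implanted line in a subcutaneous site, not for a tumour arising in the liver, and a bulk library mixes tumour cells with the host's cells. Fewer cells of a type and less RNA per cell therefore cannot be told apart.

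Totals ran from 61081637 to 80442954 estimated counts per library, and levels are given as CPM, counts per 1000000 of the TMM-scaled library total. In a library listed at 0 as many as 3 counts could have been missed, or 12 if each read pair adds 4 units, by counting error alone. Over the 14963 genes tested with edgeR the median log2 fold change was -0.01. The labelled cell type was checked first: Afp, made by fetal liver and hepatoma cells, lay at 43.4 to 66.7 CPM in the control libraries and 32.6 to 41.8 in the luteolin libraries, and Krt18, an epithelial keratin, at 193 to 266 over all libraries, while Alb, the main product of hepatocytes, ranged from 0.868 to 132. Luteolin replicate 2 stands apart, with 11180 CPM over 16 skin keratinocyte markers against 506 in luteolin replicate 1, 24.4 in luteolin replicate 3 and 14.7 to 19.4 in the control libraries. Each result on the neutrophil genes is therefore also given without it where its call changes.

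The promoters of the called pair, of the receptor with the highest level and of the gene found in 1 library are shown first, since S100a8 and S100a9 moved together and Ngp did not move with them. Each run holds the 250 bases before the RefSeq start of the gene on GRCm38.p6, read 5′ to 3′ on the strand of the gene. Capitals mark TTNNGCAA or TGNNGCAA (letters of the C/EBP motif, the factor family of granulocyte differentiation), GAGGAA (the core of the PU.1 motif), each on either strand, and TATAAA on the strand of the gene.
S100a8, chr3:90668821-90669070, plus strand: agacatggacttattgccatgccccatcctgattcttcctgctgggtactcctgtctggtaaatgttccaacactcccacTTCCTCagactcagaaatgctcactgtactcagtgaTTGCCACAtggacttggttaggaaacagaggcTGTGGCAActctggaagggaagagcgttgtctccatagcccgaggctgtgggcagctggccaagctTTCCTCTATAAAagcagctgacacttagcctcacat
S100a9, chr3:90695722-90695971, minus strand: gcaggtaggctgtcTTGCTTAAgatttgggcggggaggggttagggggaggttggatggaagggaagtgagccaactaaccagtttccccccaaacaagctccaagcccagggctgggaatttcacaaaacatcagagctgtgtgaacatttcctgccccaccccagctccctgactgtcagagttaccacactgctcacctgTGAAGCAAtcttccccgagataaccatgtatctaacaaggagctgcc
Csf3r, chr4:126024409-126024658, plus strand: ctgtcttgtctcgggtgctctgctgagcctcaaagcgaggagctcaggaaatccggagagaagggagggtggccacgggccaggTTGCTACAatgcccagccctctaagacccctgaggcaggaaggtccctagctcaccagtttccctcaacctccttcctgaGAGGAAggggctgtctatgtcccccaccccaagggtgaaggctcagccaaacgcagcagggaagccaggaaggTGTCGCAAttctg
Ngp, chr9:110419558-110419807, plus strand: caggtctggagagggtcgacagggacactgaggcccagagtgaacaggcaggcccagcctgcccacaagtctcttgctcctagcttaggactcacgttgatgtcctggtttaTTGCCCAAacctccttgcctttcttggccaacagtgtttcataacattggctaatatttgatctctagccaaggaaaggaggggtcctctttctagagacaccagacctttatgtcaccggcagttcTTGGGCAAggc
All 10 genes had a promoter in the RefSeq table. TTNNGCAA was present in 4 of the 10 and in 9.56% of all 32851 promoters of this length, TGNNGCAA in 4 of the 10 and in 9.59%, and either of them in 6 of the 10 and in 18.1%. GAGGAA was present in 6 of the 10 and in 23.3% of all promoters, and TATAAA in 3 of the 10 and in 7.59%. In S100a8 the TATAAA lay 30 to 25 bases before the start and abutted a GAGGAA on the opposite strand at 36 to 31 bases. In S100a9 the nearest match was a TGNNGCAA at 47 to 40 bases, in Csf3r a TGNNGCAA at 13 to 6 bases, and in Ngp a TTNNGCAA at 11 to 4 bases before the start. These matches describe letters only. S100a8 and S100a9 are neighbours on chromosome 3 with 0 other genes between them in the RefSeq table, and Fpr1 and Fpr2 are neighbours on chromosome 17 likewise.

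To ask which neutrophil genes differed between the groups, each was read from the test over all genes. Of the 10 genes, 9 passed the filter on low counts, and Ngp did not. At an adjusted p under 0.05 (edgeR, quasi-likelihood, Benjamini-Hochberg over all genes) 2 of the 9 were higher in the luteolin group, S100a8 and S100a9, where 1.34% of all genes tested were called higher. At the threshold of the study, which takes a p below 0.05 before adjustment and more than a 2-fold change, 8 of the 9 were up-regulated and 0 were down-regulated, where 11.3% of all genes were called higher and 1.52% lower. None of the 5 receptors passed the adjusted threshold by edgeR, whereas all 5 did by DESeq2 and by voom. The share of all genes called by DESeq2 or voom was not taken, here or for the lists below. Every luteolin library lay above every control library for 7 of the 9, against 15.9% of all genes tested. The median log2 fold change of the 9 genes was 2.52. Genes that passed the filter only through the luteolin libraries had to differ, so these counts describe the list and do not test it.

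**Figure D1:**
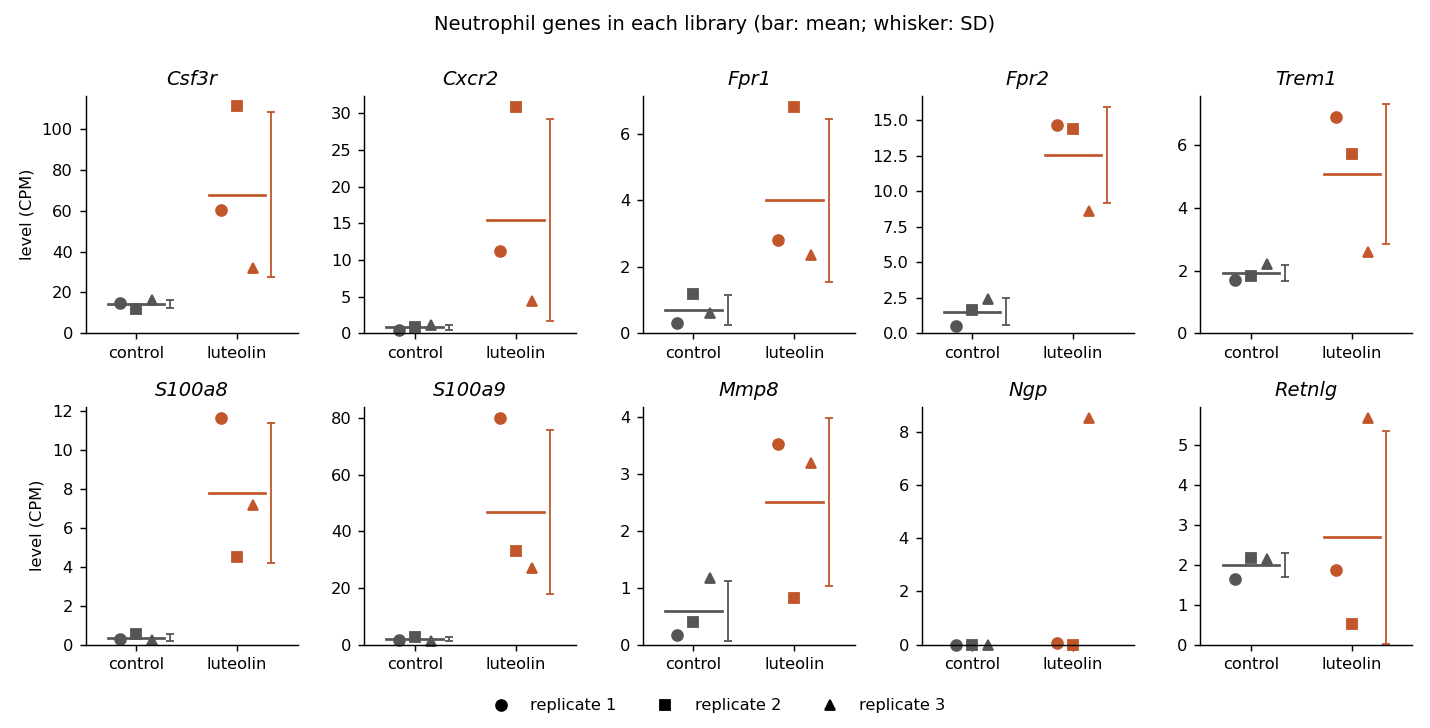
Level of each of the 10 genes in CPM (vertical axes, from 0) in the 3 control and 3 luteolin libraries, with the replicate number as the marker shape, the mean as a bar and the SD as a whisker; Ngp has points only. The control libraries sit below all luteolin libraries for the 5 receptors, S100a8 and S100a9, whereas Mmp8 and Retnlg overlap.

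Csf3r encodes the receptor of G-CSF, the cytokine that drives neutrophil production and release. Its level was 14.8, 12.0 and 16.2 CPM in control replicates 1, 2 and 3 and 60.5, 112 and 31.8 CPM in luteolin replicates 1, 2 and 3. The control libraries lay close together, all luteolin libraries lay above them, and luteolin replicate 2 was the highest. The log2 fold change was 2.25 ± 0.44 (SE, n = 3 per group), with an adjusted p of 0.0643 by edgeR, which missed the threshold. The adjusted p fell under it without luteolin replicate 2 (0.0449, log2 fold change 1.71) and without luteolin replicate 3 (0.0367, log2 fold change 2.53).

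Cxcr2 encodes the receptor of the CXC chemokines that attract neutrophils. It lay at 0.472, 0.819 and 1.12 CPM in the control libraries and at 11.2, 30.9 and 4.37 CPM in the luteolin libraries. This was the steepest spread among the luteolin libraries of any receptor, with luteolin replicate 2 the highest and luteolin replicate 3 the lowest, and the groups did not overlap. The log2 fold change of 4.27 ± 0.80 was the largest of the receptors, with an adjusted p of 0.0560 by edgeR's test. It passed the threshold without luteolin replicate 2 (adjusted p 0.0398, log2 fold change 3.30) and without luteolin replicate 3 (0.0381, log2 fold change 4.64).

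Fpr1 and Fpr2 encode the formyl peptide receptors, which sense bacterial and mitochondrial peptides and, for Fpr2, also serum amyloid A and annexin A1. Fpr1 measured 0.30, 1.17 and 0.620 CPM in the control libraries and 2.81, 6.82 and 2.36 CPM in the luteolin libraries. Fpr2 measured 0.515, 1.64 and 2.45 CPM in the control libraries and 14.7, 14.4 and 8.65 CPM in the luteolin libraries. Neither gene overlapped between the groups, and in Fpr2 the first and second luteolin libraries were nearly level. The log2 fold change was 2.52 ± 0.69 for Fpr1 (adjusted p 0.118 by edgeR) and 3.03 ± 0.60 for Fpr2 (adjusted p 0.0644), and both passed the study's threshold but not the adjusted one.

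Trem1 encodes a receptor that amplifies the inflammatory response of neutrophils and monocytes through the adaptor encoded by Tyrobp. It stood at 1.70, 1.84 and 2.22 CPM in the control libraries and at 6.89, 5.73 and 2.58 CPM in the luteolin libraries. Luteolin replicate 3 was only 1.16 times the highest control library, the narrowest gap among the genes that did not overlap. Its log2 fold change was 1.40 ± 0.45 with an adjusted p of 0.161 by edgeR, and with luteolin replicate 3 as the only luteolin library it was 0.44.

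S100a9 and S100a8 encode the subunits of calprotectin, a calcium- and zinc-binding complex that fills the cytosol of mature neutrophils and, once released, signals through TLR4 and RAGE. S100a9 measured 1.43, 2.59 and 1.36 CPM in the control libraries and 79.97, 33.2 and 27.1 CPM in the luteolin libraries. S100a8 measured 0.30, 0.541 and 0.233 CPM in the control libraries and 11.7, 4.51 and 7.18 CPM in the luteolin libraries. All luteolin libraries were far above the controls: the lowest luteolin library held 10.4 times the highest control for S100a9 and 8.35 times for S100a8, the widest gaps of the 9 genes. Luteolin replicate 1 was the highest for both.

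By edgeR's test S100a9 had a log2 fold change of 4.70 ± 0.54 and S100a8 one of 4.44 ± 0.57 (SE), each with an adjusted p of 0.0331. With any library left out, the log2 fold change stayed between 4.06 and 5.06 for S100a9 and between 4.02 and 4.86 for S100a8. The calls changed with the libraries used: both adjusted p values rose to 0.207 without control replicate 2, to 0.148 without control replicate 3, to 0.162 for S100a9 and 0.169 for S100a8 without control replicate 1, and to 0.117 and 0.124 without luteolin replicate 1. The calls held without luteolin replicate 2, the library rich in keratinocyte transcripts, at adjusted p values of 0.0211 for S100a9 and 0.0170 for S100a8, and without luteolin replicate 3 at 0.0355 and 0.0497.

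The balance of the subunits varied among libraries. Lengths were taken over the joined exons of all isoforms. Per base of exon, S100a9 exceeded S100a8 6.33, 6.38 and 7.80 times in the control libraries and 9.12, 9.77 and 5.01 times in the luteolin libraries. The luteolin values lie on both sides of the control values, and the control ratios rest on 15 to 35 counts of S100a8.

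Mmp8 encodes neutrophil collagenase, a protease stored in granules. Its level was 0.172, 0.401 and 1.18 CPM in the control libraries and 3.53, 0.814 and 3.19 CPM in the luteolin libraries. Control replicate 3 lay above luteolin replicate 2, so the groups overlapped, and the control values rest on 12 to 76 counts. The log2 fold change was 2.10 ± 0.88 with an unadjusted p of 0.0479 and an adjusted p of 0.240 by edgeR. Without luteolin replicate 2 the groups did not overlap, and the log2 fold change was 2.55 with an adjusted p of 0.159 by edgeR.

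Ngp encodes neutrophilic granule protein, a product of the secondary granule stage. It had 0 counts in all 3 control libraries and 4, 0 and 544 counts in luteolin replicates 1, 2 and 3, or 0.0653, 0 and 8.51 CPM. The signal thus came from luteolin replicate 3, where it was at least 188-fold above the control limit of 3 counts per library, or at least 47.0-fold above a limit of 12 counts. Over the luteolin group the mean was at least 63.2-fold or 15.8-fold above the same limits. With no filter on low counts edgeR gave an adjusted p of 0.241.

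Retnlg encodes resistin-like gamma, a secreted protein of blood neutrophils. It measured 1.65, 2.18 and 2.14 CPM in the control libraries and 1.86, 0.527 and 5.68 CPM in the luteolin libraries. The luteolin libraries lay below, among and above the controls, with luteolin replicate 2 the lowest and luteolin replicate 3 the highest of all. Its log2 fold change was 0.43 ± 0.79 with an adjusted p of 0.814 by edgeR, and it turned to -0.75 without luteolin replicate 3.

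**Figure D2:**
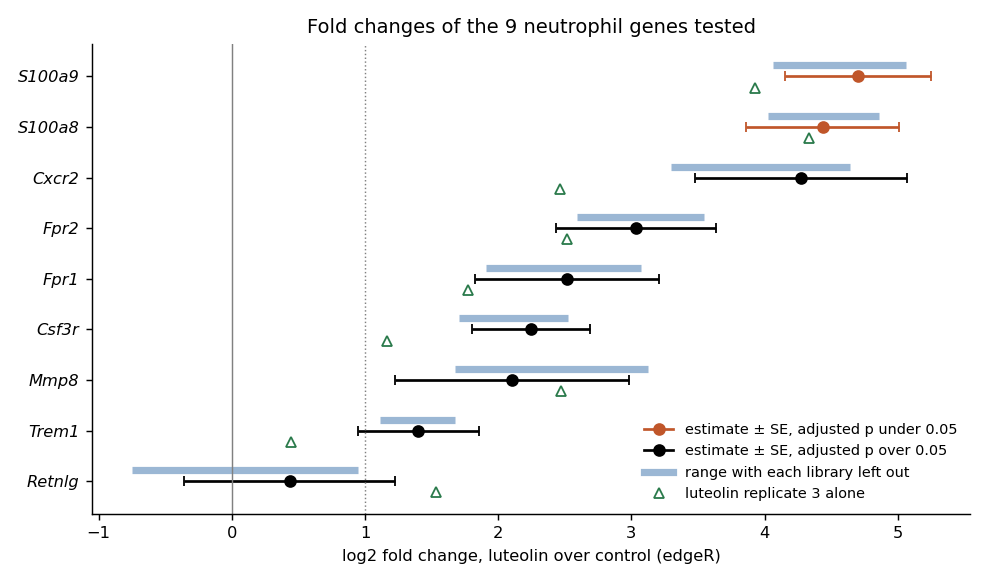
Log2 fold change of luteolin over control (horizontal axis) for the 9 genes tested, as edgeR's estimate ± SE, with the range when each library is left out in turn and the value with luteolin replicate 3 as the only luteolin library. S100a9 and S100a8 stay above 3.9 in all of these, and the range of Retnlg spans 0, from -0.75 to 0.94.

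The luteolin libraries did not order the genes alike. Luteolin replicate 1 was the highest for Fpr2, Trem1, S100a8, S100a9 and Mmp8, luteolin replicate 2 for Csf3r, Cxcr2 and Fpr1, and luteolin replicate 3 for Ngp and Retnlg. Against the control mean, S100a8 stood at 32.6-fold, 12.6-fold and 20.1-fold in luteolin replicates 1, 2 and 3, and S100a9 at 44.5-fold, 18.5-fold and 15.1-fold. Cxcr2 stood at 13.98-fold, 38.5-fold and 5.44-fold. In luteolin replicate 3 the 5 receptors were at 1.35-fold to 5.64-fold, all below both S100 genes, while Retnlg was at 2.86-fold there and at 0.265-fold in luteolin replicate 2. These are 3 libraries without repeats, and the differences between them were not tested.

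**Figure D3:**
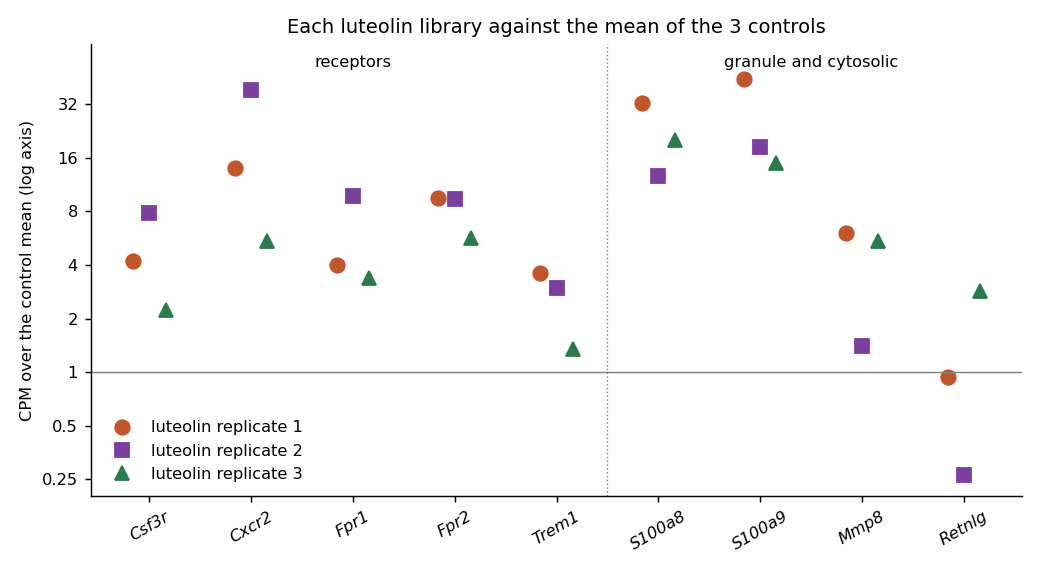
Level of 9 genes in each luteolin library divided by the mean of the 3 control libraries (log axis); Ngp is left out because its control libraries are at 0. S100a8 and S100a9 exceed 12-fold in all 3 libraries, and Retnlg runs from 0.265-fold in luteolin replicate 2 to 2.86-fold in luteolin replicate 3.

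Levels were compared between the genes per kilobase of exon. In the control group the order was Csf3r at 3.96 CPM per kb, S100a9 at 3.44 and Retnlg at 3.35, whose ranges overlapped, then Fpr2 at 1.18, Trem1 at 0.641, Fpr1 at 0.527, S100a8 at 0.516, Cxcr2 at 0.263 and Mmp8 at 0.241, with Ngp at 0. Among these neighbours only Retnlg lay clear of Fpr2 and Mmp8 clear of Ngp in the ranges over 3 libraries. In the luteolin group S100a9 led at 89.5 ± 55.5 CPM per kb (SD, n = 3) and lay clear of Csf3r at 18.8 ± 11.2. Every later pair of neighbours overlapped: S100a8 at 11.2, Fpr2 at 9.71, Cxcr2 at 5.08, Retnlg at 4.54, Fpr1 at 3.02, Ngp at 2.34, Trem1 at 1.69 and Mmp8 at 1.04.

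The label of the list was checked against other neutrophil genes. Of 19 further genes high in mature neutrophils, 15 were tested, 11 passed the study's threshold upward, 0 passed it downward, and the median log2 fold change was 1.86. Clec4d, Clec4e and Hdc passed an adjusted p of 0.05 by edgeR and are named here after their values were seen. Clec4d and Clec4e encode C-type lectin receptors of myeloid cells, and Hdc makes histamine. Clec4e lay at 0.830 to 1.50 CPM in the control libraries and 7.66 to 21.9 in the luteolin libraries, and its log2 fold change was 3.47 ± 0.50. Selplg, the P-selectin ligand by which leukocytes roll on vessels, had a log2 fold change of 1.76 ± 0.33 (adjusted p 0.0552 by edgeR), Pglyrp1, a bactericidal granule protein, one of 1.86 ± 0.59 (0.155), and Mxd1, a MYC antagonist of mature granulocytes, one of 0.89 ± 0.37 (0.237). Padi4, which encodes the enzyme that citrullinates histones in neutrophils and is named after its values were seen, lay lower in every luteolin library (11.1 to 12.9 CPM) than in any control (13.2 to 17.4), with a log2 fold change of -0.30 ± 0.22 (0.491). Asprv1, which skin also makes, reached 566 CPM in luteolin replicate 2.

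The defining surface marker of mouse neutrophils did not follow the receptors. Ly6g was at 0.186, 0.556 and 0.186 CPM in the control libraries and at 0, 0.108 and 0.516 CPM in the luteolin libraries, or 0 to 36 counts per library, with a log2 fold change of -0.57 ± 1.32. Its low level and the expression of the receptors in monocytes mean that the genes are called neutrophil genes here by their list, and the cells that held the transcripts were not identified.

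The granule genes were read by the stage at which they are made. Of 6 primary granule genes 3 were tested and 0 passed the study's threshold or an unadjusted p under 0.05, with edgeR, DESeq2 or voom. Mpo, Prtn3, Ctsg and Elane, the enzymes of that granule, all lay under 1 CPM in every library. Of 6 secondary granule genes 5 were tested and 4 passed the study's threshold upward, with 0 at an adjusted p under 0.05 by edgeR, 3 by DESeq2 and 4 by voom. Ltf and Olfm4 were among those that passed the study's threshold and had 0 counts in all control libraries. They passed the filter only through the luteolin libraries and had to come out higher. Olfm4 is named after its values were seen. Lcn2, which binds bacterial siderophores, had 0.401 to 2.62 CPM in the control libraries and 18.6, 69.1 and 5.45 CPM in the luteolin libraries. Ltf, which encodes lactoferrin, had 0 counts in all control libraries and 0.359, 0.191 and 4.57 CPM in the luteolin libraries. Camp, the cathelicidin gene, had 0 counts in all control libraries and 0, 0.0838 and 1.57 CPM in the luteolin libraries. Chil3, a chitinase-like protein of neutrophils and of some macrophages, lay at 14.3, 5.89 and 580 CPM in the luteolin libraries against 10.6 to 38.7 in the controls, and its log2 fold change was -1.02 without luteolin replicate 3. Ltf, Camp, Chil3, Ngp and Retnlg thus shared their highest value in luteolin replicate 3, as did Mpo, Elane and Cd177. Cd177 is of the secondary granule list and is named after its values were seen. In the same list Lcn2 was highest in luteolin replicate 2, and Olfm4 in luteolin replicate 1, at 0.718, 0.503 and 0.626 CPM in luteolin replicates 1, 2 and 3.

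Of 5 tertiary granule and surface protease genes, 3 passed the study's threshold upward, with a median log2 fold change of 1.68. Adam8, a surface protease of leukocytes, passed the adjusted threshold by edgeR with a log2 fold change of 1.68 ± 0.21 and an adjusted p of 0.0331. Slpi, a protease inhibitor, had a log2 fold change of 3.20 ± 0.70 and an adjusted p of 0.0789. Mmp9, gelatinase B, was at 27.5 to 33.8 CPM in the control libraries and 46.4 to 60.8 in the luteolin libraries, with a log2 fold change of 0.80 ± 0.18 and an adjusted p of 0.0845. Itgam, an integrin of myeloid cells, overlapped between the groups at a log2 fold change of 0.22 ± 0.38.

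The ligands of the receptors were read next. Of 11 ligand genes 9 were tested, 5 passed the study's threshold upward and 0 downward, and the median log2 fold change was 2.50. Saa3, a serum amyloid A that acts on FPR2, lay at 3.36, 3.68 and 6.59 CPM in the control libraries and at 283, 278 and 47.3 CPM in the luteolin libraries, with a log2 fold change of 5.48 ± 0.76 and an adjusted p of 0.0332 by edgeR. Cxcl2, a ligand of CXCR2, lay at 1.27 to 2.44 CPM in the control libraries and at 39.7, 11.4 and 13.7 CPM in the luteolin libraries, with a log2 fold change of 3.65 ± 0.59 and an adjusted p of 0.0437. All luteolin libraries exceeded all controls for both genes.

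Cxcl5 and Cxcl1, further CXCR2 ligands, had log2 fold changes of 5.05 ± 0.90 (adjusted p 0.0521 by edgeR) and 0.87 ± 0.41 (0.298). Csf3, which encodes G-CSF, had one of 2.50 ± 0.69 (0.121), at 0.217 to 0.844 CPM in the control libraries and 1.42 to 4.60 in the luteolin libraries. Anxa1, the annexin that acts on FPR2, was abundant and overlapped, at 232 to 412 CPM in the control libraries and 339 to 397 in the luteolin libraries.

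Of 9 adaptors, kinases and partners of the receptors, 8 were tested and 4 passed the study's threshold upward. Tyrobp, the adaptor of TREM1, had a log2 fold change of 1.25 ± 0.40 (adjusted p 0.158 by edgeR), Stat3, which acts below the G-CSF receptor, one of 0.89 ± 0.26 (0.140), Jak2, the kinase at that receptor, one of 0.45 ± 0.27 (0.413), and Gnai2, the G protein subunit of the chemoattractant receptors, one of 0.12 ± 0.19 (0.785). Of 13 paralogs of Trem1, the Fpr genes and Retnlg, 7 were tested and 1 passed the study's threshold, and 6 had 0 counts in all libraries. Trem2, a macrophage receptor, had a log2 fold change of 0.88 ± 0.21 (0.0952), and Retnla, a paralog of Retnlg made by macrophages, one of 0.24 ± 0.57 (0.863). Reads shared by near-identical copies may be split among them.

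The other S100 genes were read beside S100a8 and S100a9. Of 14, 12 were tested, 2 passed the study's threshold upward and 0 downward, and the median log2 fold change was -0.21. The direction of the calls at an adjusted p under 0.05 turned with the tool: edgeR called 0 (3 at an unadjusted p under 0.05), DESeq2 2 higher and 1 lower, and voom 0 higher and 3 lower. S100a4, a mesenchymal and metastasis-linked member, lay at 177 to 268 CPM in the control libraries and 105 to 150 in the luteolin libraries, a log2 fold change of -0.77 ± 0.21 with an adjusted p of 0.120 by edgeR. S100a6, S100a10 and S100a11, the most abundant members, had log2 fold changes of -0.29 ± 0.39, -0.28 ± 0.20 and -0.01 ± 0.27. The 2 that passed were S100a14 and S100a16, named after their values were seen, which had 74.2 and 69.9 CPM in luteolin replicate 2 against 0.704 and 5.13 in luteolin replicate 3. Among 5 receptors of calprotectin, only Cd14 passed the study's threshold, at a log2 fold change of 1.15 ± 0.27. Tlr4 had one of -0.15 ± 0.28 and Bsg, which encodes basigin, one of -0.13 ± 0.27.

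Of 6 transcription factors of granulocyte differentiation, 3 passed the study's threshold upward, with a median log2 fold change of 1.35, and 0 passed an adjusted p of 0.05 by edgeR, 3 by DESeq2 and 2 by voom. Spi1, which encodes PU.1, had a log2 fold change of 1.68 ± 0.36 (adjusted p 0.0772), Cebpa one of 1.90 ± 0.66 (0.178) and Cebpb one of 1.02 ± 0.64 (0.430). Cebpe, the factor of secondary granule genes, lay at 0.248 to 0.615 CPM in the control libraries and 0.263 to 1.18 in the luteolin libraries, with one of 0.79 ± 0.73 (0.603).

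**Figure D4:**
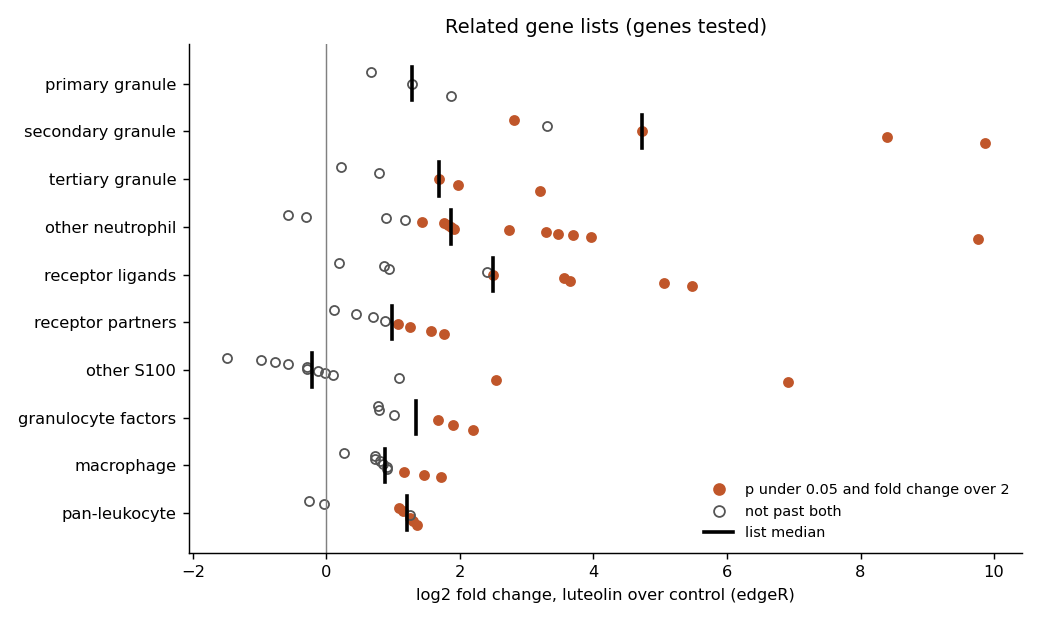
Log2 fold change of luteolin over control by edgeR (horizontal axis) for the tested genes of 10 related lists, 1 point per gene, filled where p is under 0.05 and the fold change over 2, with the median of each list as a bar. The secondary granule list has a median of 4.73 and the ligands one of 2.50, against -0.21 for the other S100 genes. The secondary granule list includes Ltf and Olfm4, which had 0 counts in all control libraries and had to come out higher.

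Markers of other cells moved with the groups too, and their part in the results on the neutrophil genes was not tested. The summed level of 8 genes shared by leukocytes was 1056 to 1072 CPM in the control libraries and 1196 to 1436 in the luteolin libraries, and 5 of the 8 passed the study's threshold upward. Ptprc, the pan-leukocyte CD45 gene, had a log2 fold change of 1.16 ± 0.23 (adjusted p 0.0639 by edgeR), while Lcp1 and Itgb2, the most abundant of the list, had ones of -0.26 ± 0.14 and -0.04 ± 0.14. The summed level of 10 monocyte and macrophage markers was 997 to 1159 CPM in the control libraries and 1566 to 2378 in the luteolin libraries, with 3 of 10 past the study's threshold and a median log2 fold change of 0.88. Cd68, a lysosomal protein of macrophages, passed the adjusted threshold by edgeR with a log2 fold change of 1.16 ± 0.15 (adjusted p 0.0331), and Ly6c2, a monocyte marker, had one of 1.71 ± 0.34 (0.0639), both named after their values were seen. Adgre1, the F4/80 gene, had a log2 fold change of 0.91 ± 0.22 (0.0971) and C1qa, a complement subunit of macrophages, one of 0.80 ± 0.28 (0.185).

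Of 6 eosinophil markers 4 were tested and 0 passed an unadjusted p of 0.05, with edgeR, DESeq2 or voom. The defining granule gene Epx had 0 counts in all 6 libraries, and Siglecf lay at 0.915 to 1.72 CPM in the control libraries and 0.598 to 2.21 in the luteolin libraries. The 6 red cell markers, a measure of blood in the tissue, summed to 27.0 to 35.5 CPM in the control libraries and to 14.7, 23.7 and 8.21 CPM in the luteolin libraries. The control libraries lay above the luteolin libraries, and within the luteolin group the order was that of the summed receptor genes, at 96.1, 169 and 49.7 CPM. Hba-a1 and Hba-a2, alpha-globin genes named after their values were seen, had their highest values of all libraries in luteolin replicate 2, at 4.17 and 3.22 CPM.

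The keratinocyte markers varied widely among the luteolin libraries. Of 16, 14 were tested and 13 passed the study's threshold upward. At an adjusted p under 0.05 edgeR called 0, voom 1, and DESeq2 10 of the 10 to which it gave a p value. Of the 16, 10 had 0 counts in all control libraries. Those of them that were tested passed the filter only through the luteolin libraries and had to come out higher. Krt14, a basal keratin, was at 157, 2439 and 4.33 CPM in luteolin replicates 1, 2 and 3, Krt5 at 50.4, 1883 and 4.74 CPM, and Krt10, of the upper layers, at 61.1, 2013 and 4.26 CPM against 3.23 to 4.28 in the controls. The 8 genes of stressed keratinocytes summed to 255, 2951 and 3.21 CPM in the luteolin libraries and to 0.0572 to 0.185 in the controls. S100a8 and S100a9 together stood at 91.6, 37.7 and 34.2 CPM in luteolin replicates 1, 2 and 3 and at 1.60 to 3.13 CPM in the controls. In luteolin replicate 3 the keratinocyte sum was 24.4 CPM against 14.7 to 19.4 in the controls, but its make-up differed. Ivl, an envelope protein of the upper layers named after its values were seen, gave 9.31 to 13.7 CPM of the control sums and 4.397 in luteolin replicate 3, while Krt14 and Krt5 had 0 counts in all controls. The summed keratinocyte markers were thus above the controls in all 3 luteolin libraries. Taken as the only luteolin library, luteolin replicate 3 gave log2 fold changes of 3.93 for S100a9 (adjusted p 0.0928 by edgeR) and 4.33 for S100a8 (0.119), with the lone library assumed to vary like the controls. For the receptors the highest library was luteolin replicate 2 in 3 of 5 cases, and without it the median log2 fold change of the 5 was 1.91 in place of 2.52.

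**Figure D5:**
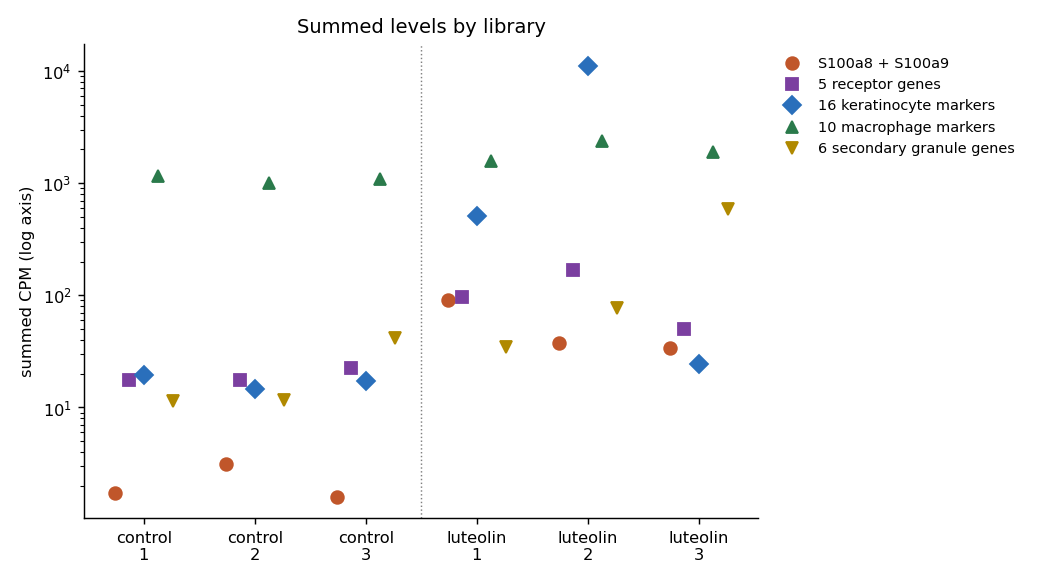
Summed CPM (log axis) in each library for S100a8 plus S100a9, the 5 receptor genes, 16 skin keratinocyte markers, 10 macrophage markers and 6 secondary granule genes. The keratinocyte markers reach 11180 in luteolin replicate 2 and 24.4 in luteolin replicate 3, and S100a8 plus S100a9 lies at 34.2 to 91.6 in all 3 luteolin libraries.

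The genes whose pattern was most like the mean log2 CPM of the 9 tested genes were found by Pearson correlation over the 6 libraries. The search ran over 14954 other genes, and Ngp was not part of the mean. The 5 with the highest r were Tnn at 0.997, Bst1 at 0.997, Acod1 at 0.995, Ctsk at 0.994 and Spata13 at 0.994, and 258 genes had an r above 0.95. The 6 points fall into the same groups of 3, so that any gene that separates the groups scores high. Acod1, which makes itaconate in activated myeloid cells, was at 1.83 to 5.73 CPM in the control libraries and 39.7 to 78.9 in the luteolin libraries. Bst1, a surface enzyme of marrow stroma and myeloid cells, was at 8.01 to 12.2 CPM in the control libraries and 29.7 to 37.2 in the luteolin libraries. Tnn was at 0.716 to 1.41 CPM in the control libraries and 10.5 to 23.0 in the luteolin libraries. Ctsk was at 12.7 to 17.6 and 54.3 to 76.3 CPM, and Spata13 at 5.77 to 7.40 and 23.9 to 30.8 CPM, in the same order. The log2 fold changes were 3.70 for Acod1, 1.71 for Bst1, 3.74 for Tnn, 2.14 for Ctsk and 2.04 for Spata13.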

How the data were processed

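RNA-seq of whole H22 tumours was analysed for 6 libraries, 3 per group, grouped by sample title. The authors deposited 1 whole number for each gene symbol and library, not scaled across libraries, and the table was read as estimated counts. Multiples of 4 are frequent among the low values, so 1 unit need not be 1 read pair. The submitters' processing notes name bcl2fastq 2.0, HISAT2, StringTie and DESeq2 and the builds rn6 and mm39 with no role given, and the annotation is not given in the sources used here. The labels name an RNeasy and a SMARTer kit, and the methods name other kits.

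All genes were compared in R 4.3.3 with edgeR 4.0.16 (TMM, filterByExpr, quasi-likelihood test, two-sided, no covariates, Benjamini-Hochberg adjustment over 14963 genes), and the genes of interest were read from that fit. The log2 CPM values of the correlations have a prior count of 2. Exon lengths came from GENCODE M21 and promoters from RefSeq (GRCm38.p6), and no coordinates were taken from the deposited table. Alternatives were DESeq2 1.42.0, limma 3.58.1 (voom with quality weights), other normalizations and filters, division of the values by 4, GC content and length as offsets, a replicate block and each library left out. Luteolin replicate 3 alone against the controls was added after seeing the data. The pipeline was tested on simulated data.

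The 10 genes, the lists and the alternatives were chosen with earlier results of these data known. The rule named all 10 genes, the 3 genes with the highest mean of each related list with a set of preset genes, and the 5 genes of the most similar pattern. Totals of 61081637 to 80442954 limit the precision of genes under 1 CPM.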

Additional observations from a re-analysis of the deposited data

How the results depend on the processing

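The share of all genes called was taken for the main edgeR fit only, so counts from the alternatives have no background here. At an adjusted p under 0.05, edgeR's quasi-likelihood test called 2 of the 9 tested neutrophil genes, DESeq2 7, and voom with sample quality weights 8. The count was 5 each with a minimum of 10 counts in every library, with values divided by 4 and with GC content and length offsets. With luteolin replicate 3 as the only luteolin library, the median log2 fold change of the 9 genes was 2.46. Ngp passed the filter there only through that library, and it is left out of the median. Leaving out 1 library gave 0 to 4 calls, with 0 without any control library or luteolin replicate 1 (6 to 8 of 9 genes at an unadjusted p under 0.05) and 4 without luteolin replicate 2 or 3. With the replicate number as a block the count was 0 (6 of 9 at an unadjusted p under 0.05), with adjusted p values of 0.0523 for S100a9 and 0.0825 for S100a8. As deviations from the group means, same-numbered libraries correlated at -0.20, -0.09 and 0.06, and differently numbered ones at -0.12 to 0.20. With 3 libraries per group these values cannot decide whether the numbers pair the libraries. The count at the study's threshold ranged from 6 to 8 over all settings, and the count without overlap from 7 to 8. The median log2 fold change ranged from 2.22 to 3.12 with 1 library left out, and in the other settings it moved by less than the spread between replicates. Retnlg reversed to -0.11 under the replicate block and, with 1 library left out, ranged from -0.75 without luteolin replicate 3 to 0.94 without luteolin replicate 2. The other 8 tested genes kept a positive log2 fold change in all 16 alternatives, with a lowest value of 4.02 for S100a8, 3.93 for S100a9 and 0.44 for Trem1. The cause was not tested. At this depth S100a8, Mmp8, Fpr1 and Cxcr2 rest on 12 to 76 counts in the control libraries, and Ngp and Ly6g are near the limit of detection.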
